A study of Mus musculus with 209 samples.

Results

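The nuclear respiratory chain genes described here encode subunits of complexes I, III, IV and V of oxidative phosphorylation. They were chosen by symbol, as genes named Ndufa, Ndufb, Ndufc, Ndufs or Ndufv with a number, Uqcr, Cox4 to Cox8 or Atp5, with pseudogenes left out and a mean of at least 5 CPM (counts scaled to 1e+06 per library) over the libraries of the 2 h screen. Of the 55011 genes in the table, 80 matched by symbol and 73 passed the minimum: 36 of complex I, 8 of complex III, 12 of complex IV and 17 of complex V (ATP synthase). Ndufa4, counted here with complex I by its symbol, is now assigned to complex IV. The lowest members were Atp5l, Ndufs5 and Atp5g2 at 12.4, 14.1 and 16.4 CPM, and the highest genes left out were Cox6b2, Cox7a1 and Cox4i2 at 1.87, 0.352 and 0.345 CPM, so no gene lay near the minimum. Of the members, 36 are overlapped by another annotated gene, and their counts are uncertain to that extent.

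Inbred C57BL/6J mice of 5 to 8 weeks received a cytokine (IL1b, IL6 or TNFa, 5 µg in 120 µL of PBS) or the same volume of PBS alone into a vein. After 2 h, 14 immune cell types were sorted in 2 rounds as 1000 cells per library (the screen), with 2 or 3 libraries per cytokine and 4 or 5 with PBS, and none with IL1b for pDC. By Immunological Genome Project usage the types are, from the peritoneum, macrophages (MFpc) and mast cells (MC). From the spleen come Ly6C+ monocytes (Mo.6C+), macrophages of the red pulp (MFrp), NK cells, neutrophils (GN) and dendritic cells, the plasmacytoid (pDC) and CD8+ kinds (DC.8+). The lymphocytes are gamma-delta, regulatory, CD4 and CD8 T cells (Tgd, Treg, T.4, T.8) and marginal zone and follicular B cells (MZB, B.fo). In a time course, monocytes (Mo.6C) and peritoneal macrophages (MF) were taken at 2, 4, 8 and 24 h of TNFa and at 24 h of PBS, with 2 libraries each. A further 3 monocyte libraries of mice given 1 ng of LPS in 120 µL of PBS, a bacterial product sensed by TLR4, were set against 3 control libraries; the labels give no time for them. No group carried a genetic change. Separate mice are not stated for the libraries of a group, so p-values here measure only library-to-library spread, which may be technical.

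The respiratory chain passes electrons from NADH through complex I, and from succinate through complex II, to ubiquinone, then through complex III and cytochrome c to complex IV, which reduces oxygen. Complexes I, III and IV pump protons across the inner mitochondrial membrane, and complex V uses the gradient to make ATP. Most subunits are encoded in the nucleus, and a small core of them in mitochondrial DNA. In activated macrophages and dendritic cells the balance between this chain and glycolysis is known to shift, and complex III and complex I take part in the production of reactive oxygen species.

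NRF1, GABPA and YY1 are the factors classically named for promoters of this gene family, so their motifs were searched in the RefSeq promoters (GRCm38.p6, 250 bases before to 50 after the start), of which 61 of the 73 members had one. The NRF1 palindrome, GCGCA directly followed by TGCGC, was found in 5 of these 61 (8.20%), against 1.07% of 27025 gene promoters. The GABPA letters CCGGAAG were found in 15 (24.6%), against 9.93% of all, and the YY1 letters AAGATGGC in 10 (16.4%), against 3.19%. Both strands were searched, and none of these words overlaps another. The promoters of 3 genes are printed 5′ to 3′ on the gene's strand, because the results below turn on a pair of related complex IV genes, Cox7a2l and Cox7a2, and because Cox6a1, a complex IV gene raised in NK cells and pDC and lowered in B.fo, shows a whole NRF1 word, in capitals. The Cox7a2l window is chr17:83514334-83514583 on the minus strand, bases 250 to 1 before the RefSeq start. The Cox7a2 window is chr9:79759879-79760103, minus strand, bases 250 to 26 before its start. The Cox6a1 window is chr5:115348982-115349129, minus strand, bases 171 to 24 before its start. A GABPA word of the Cox6a1 promoter, at -16 from the start, lies outside the printed bases.
Cox7a2l: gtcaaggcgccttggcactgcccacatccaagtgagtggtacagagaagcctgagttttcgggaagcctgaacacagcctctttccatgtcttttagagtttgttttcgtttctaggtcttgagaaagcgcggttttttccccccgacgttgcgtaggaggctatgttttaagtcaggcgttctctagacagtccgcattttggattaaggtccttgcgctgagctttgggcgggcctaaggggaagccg
Cox7a2: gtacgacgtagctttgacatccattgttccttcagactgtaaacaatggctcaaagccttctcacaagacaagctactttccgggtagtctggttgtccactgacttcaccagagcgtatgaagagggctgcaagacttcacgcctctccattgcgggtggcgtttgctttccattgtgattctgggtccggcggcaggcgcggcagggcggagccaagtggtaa
Cox6a1: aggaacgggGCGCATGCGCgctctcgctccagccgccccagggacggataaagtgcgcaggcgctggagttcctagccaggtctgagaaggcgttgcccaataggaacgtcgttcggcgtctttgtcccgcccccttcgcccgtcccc
None of the 3 motifs was found in the Cox7a2l or Cox7a2 promoter. This says only that these letters are not in those windows.

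Library totals ran from 1094567 to 9291121 counts, with a median of 4702887. Each cell type carried its own marker genes in every library, among them Timd4 at 481 to 1203 CPM in MFpc. Some libraries stood apart by RNA of other cells: haemoglobin in 3 MFrp libraries with PBS (1, 2 and 3), erythroid genes in DC.8+ PBS 4 and IL1b 2, and NK genes in DC.8+ PBS 5, IL6 3 and TNFa 2. CPM values below are scaled with TMM factors within a cell type. Members were called raised or lowered at an adjusted p under 0.05 in edgeR's quasi-likelihood test, adjusted over all genes tested in that comparison. The count of members in a comparison is set beside the percent of all tested genes called the same way.

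In the screen, 56 of the 73 members were called in at least 1 of 41 comparisons of a cytokine with PBS. The share of all genes called at least once was not counted. In MFpc with TNFa alone, 26.6% of all genes were raised and 26.7% lowered. This count and the sums below therefore do not set the members apart from other genes. TNFa moved the most: 85 tests raised and 26 lowered of 1013, in 9 of 14 cell types, with 42 members raised in at least 1 type and 20 lowered in at least 1. IL1b gave 18 raised and 9 lowered of 940 tests, in 4 of 13 cell types. IL6 gave 12 raised and 0 lowered of 1013 in edgeR, all in GN, with 51 estimates below 0 at an unadjusted p under 0.05 over all types and 11 lowered in DESeq2. Scaled to library totals, the balance turned to 24 raised and 127 lowered with TNFa and 4 and 43 with IL1b. With the main scaling the cell types with most calls are described below in 4 groups, and the grouping was not tested. In monocytes and peritoneal macrophages members went in both directions, with raised shares near or below those of all genes and lowered shares below them. In NK cells and pDC nearly all estimates with TNFa were positive, and in B.fo nearly all were negative. In GN members also went in both directions with TNFa, with shares near or below those of all genes.

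**Figure D1:**
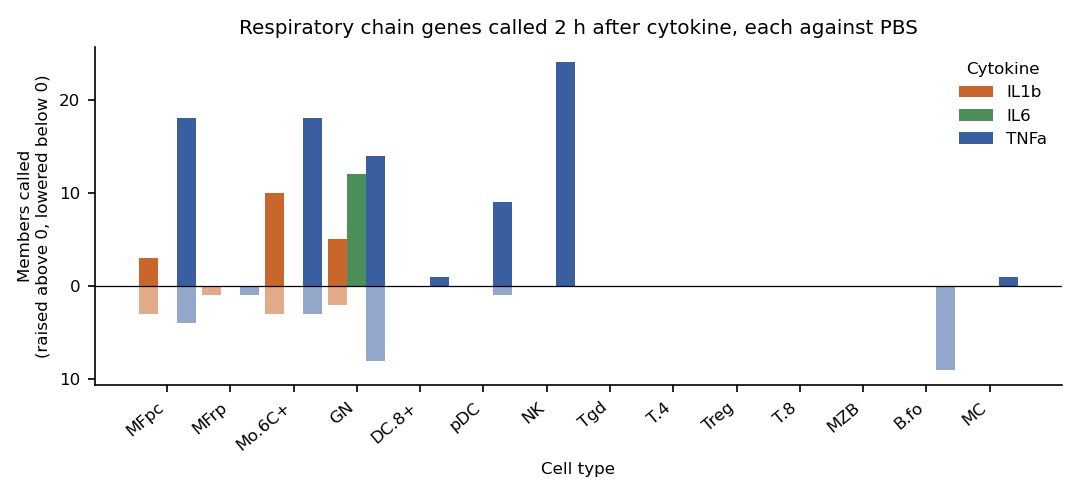
Number of respiratory chain genes raised (bars above 0) and lowered (bars below 0) at an adjusted p under 0.05, edgeR, for IL1b, IL6 and TNFa against PBS at 2 h in each cell type. NK cells with TNFa have the most raised (24) and none lowered, and B.fo with TNFa have 9 lowered and none raised; scaled to library totals, 2 are raised and 26 lowered in MFpc, 2 and 31 in Mo.6C+ and 1 and 40 in GN, all with TNFa.

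In monocytes and peritoneal macrophages TNFa raised genes of ATP synthase, of complexes III and IV and a few of complex I. It lowered a few others of complex I together with Cox7a2l. In Mo.6C+, 18 of 72 members were raised, against 24.3% of all genes, and 3 were lowered, against 24.4%. In MFpc, 18 of 72 were raised, against 26.6%, and 4 were lowered, against 26.7%. The raised shares were thus near those of all genes, and the lowered ones below them. The median member stood at 0.15 in Mo.6C+ and 0.11 in MFpc on the log2 fold change scale, against -0.04 and -0.05 over all genes. Raised in both types were 13 members, which is 72.2% of each list of 18. By complex, 8 of 17 members of complex V rose in each type; 4 of 8 of complex III rose in MFpc and 3 of 8 in Mo.6C+; 3 of 11 tested of complex IV in MFpc and 5 of 11 in Mo.6C+; and 3 and 2 of 36 of complex I.

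Among the complex V genes, Atp5b, the catalytic beta subunit of ATP synthase, stood at 1003, 914 and 1002 CPM with TNFa in Mo.6C+, against 717, 712, 711, 671 and 693 with PBS. The groups did not overlap, and the log2 fold change was 0.47 (SE 0.09, adjusted p = 0.000411). In MFpc, Atp5b had 1050.1, 972 and 1048 CPM with TNFa and 684, 665, 803, 650.4 and 732 with PBS, again without overlap (0.53, SE 0.08, adjusted p = 1.37e-05). Atp5a1, the alpha subunit, rose by 0.36 in MFpc (SE 0.07, adjusted p = 0.000291) and 0.44 in Mo.6C+. Atp5pb, subunit b of the peripheral stalk, had 279, 236 and 249 CPM with TNFa in MFpc, against 204, 191, 201, 180.4 and 186 with PBS (0.40, SE 0.08, adjusted p = 0.000365). Atp5md, a small membrane subunit, had the largest fold in Mo.6C+, at 54.2, 58.6 and 38.9 CPM with TNFa and 44.2, 42.0 and 41.6 with IL1b, against 23.0, 26.8, 28.5, 24.9 and 27.1 with PBS. Every TNFa and IL1b library lay above every PBS library (TNFa 0.96, SE 0.15, adjusted p = 7.61e-05).

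In complex III, Uqcrfs1, the Rieske iron-sulfur protein, rose in both types. It had 347, 388 and 308 CPM with TNFa and 289, 313 and 254 with IL1b in Mo.6C+, against 223, 208, 233, 181 and 224 with PBS, with no overlap (TNFa 0.70, SE 0.12, adjusted p = 0.000158). In MFpc it had 195, 175 and 179 CPM with TNFa and 112, 137, 114, 136 and 117 with PBS (0.57, SE 0.09, adjusted p = 3.86e-05). Uqcrb, a small subunit near the quinone site, had 104, 128 and 102 CPM with TNFa in Mo.6C+, against 69.5, 49.5, 67.3, 61.1 and 68.8 with PBS. That difference of 0.82 (SE 0.15, adjusted p = 0.000207) again left the groups apart. In MFpc, Uqcrb rose by 0.36. In complex IV, Cox6b1, a small subunit, had 269, 314 and 254 CPM with TNFa in Mo.6C+, against 218, 184, 197, 173 and 205 with PBS, without overlap (0.51, SE 0.12, adjusted p = 0.00191), and in MFpc its groups overlapped (0.24, adjusted p = 0.0266). Cox5a rose in both types (0.27 in Mo.6C+, 0.34 in MFpc), as did Cox7a2, and Cox5b (0.50) and Cox8a (0.45) rose in Mo.6C+.

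Of complex I, Ndufa6 and Ndufs7 fell in both types. Ndufa6, an accessory subunit of the matrix arm, had 92.1, 88.7 and 90.8 CPM with TNFa and 108, 116 and 91.6 with IL1b in Mo.6C+, against 132, 143, 142, 134 and 173 with PBS. The groups did not overlap (TNFa -0.68, SE 0.13, adjusted p = 0.000275; IL1b -0.46, SE 0.12, adjusted p = 0.00754). Ndufs7, which holds the iron-sulfur cluster next to ubiquinone, had 80.4, 70.6 and 99.8 CPM with TNFa in Mo.6C+, against 111, 110, 115, 111 and 118 with PBS (-0.44, SE 0.13, adjusted p = 0.0114). In MFpc, Ndufs7 had 92.5, 82.0 and 75.8 CPM with TNFa and 99.0, 109.9, 101, 114 and 101 with PBS (-0.33, SE 0.10, adjusted p = 0.0118). Ndufv3, an accessory subunit of the NADH-oxidising module, fell in MFpc, to 64.0, 61.1 and 47.1 CPM with TNFa, against 65.4, 79.8, 76.4, 86.1 and 80.8 with PBS (-0.44, SE 0.13, adjusted p = 0.00658).

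With IL1b fewer members were called. In Mo.6C+, 10 of 72 members rose, against 19.4% of all genes, and 3 fell, against 17.6%. In MFpc, 3 rose, against 20.7%, and 3 fell, against 16.6%. All 3 raised in MFpc (Atp5b, Atp5pb and Uqcrfs1) were also raised in Mo.6C+, and Ndufa6 and Ndufs7 fell in both. IL1b and TNFa shared their PBS libraries, so the estimates of the 2 cytokines were not independent.

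Scaling to library totals moved the median of all genes by -0.36 in MFpc and -0.47 in Mo.6C+ with TNFa and by -0.28 in Mo.6C+ with IL1b, and then 2, 2 and 2 members were raised and 26, 31 and 15 lowered. With no filter on low counts, the raised counts were 10 in MFpc and 8 in Mo.6C+ with TNFa. Without TNFa library 1 that in MFpc was 10, and without IL1b library 2 that in Mo.6C+ was 5. In Mo.6C+ the red pulp macrophage marker list of 8 genes also moved, at 4250 to 6734 CPM with TNFa and 2500 to 4320 with IL1b, against 179 to 351 with PBS. Hmox1 and Spic carried most of it. With TNFa, Vcam1 (21.6 to 54.7 CPM against 0.512 to 10.5) and Cd5l (1.82 to 4.36 against 0 to 1.12) also lay above PBS. C1qa stood at 3.19 to 17.6 CPM with TNFa against 0.959 to 8.34, and C1qb, C1qc and Slc40a1 overlapped PBS too. The part of this list in these results was not tested. In sorted bulk samples fewer cells of a type and less RNA per cell cannot be told apart.

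**Figure D2:**
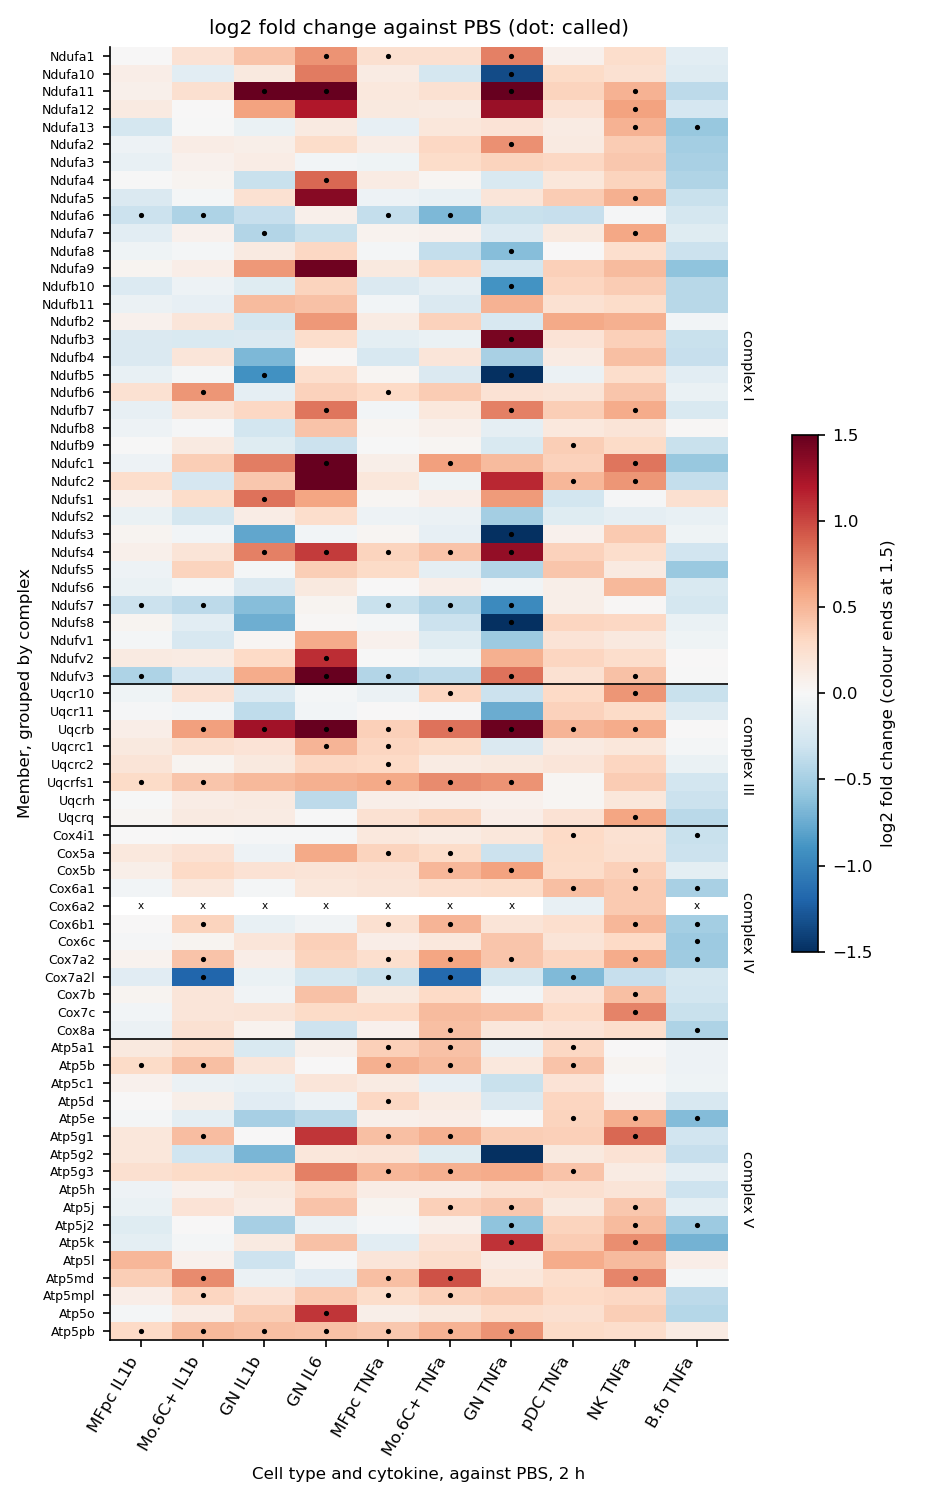
Log2 fold change against PBS of the 73 respiratory chain genes, in blocks by complex, in the 10 screen comparisons with the most calls; a dot marks an adjusted p under 0.05, a cross a gene not tested, and the colours end at 1.5. Complex III, IV and V genes are mostly above 0 in MFpc, Mo.6C+, NK and pDC with TNFa, Cox7a2l is below 0 in the same columns, and B.fo is below 0 in 66 of 72; scaled to library totals, the raised genes of MFpc, Mo.6C+ and GN with TNFa mostly lose their call or turn below 0.

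Cox7a2l showed the largest fall of any member in monocytes and moved opposite to its relative Cox7a2. Cox7a2l (chr17:83501918-83517330, GRCm38, minus strand) encodes a factor that joins complexes III and IV into supercomplexes, and C57BL/6 mice are known to carry a short form of the protein. In Mo.6C+ it had 118, 90.7 and 84.8 CPM with IL1b, 181, 144 and 148 with IL6 and 116, 91.7 and 90.1 with TNFa, against 200.4, 219, 207, 232 and 258 with PBS. All 9 cytokine libraries lay below all 5 PBS libraries. The log2 fold change was -1.19 with IL1b (SE 0.15, adjusted p = 1.22e-05) and -1.17 with TNFa (SE 0.15, adjusted p = 7.58e-06), and with IL6 it was -0.50 and missed the threshold (SE 0.14, adjusted p = 0.0525).

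In pDC, Cox7a2l had 114, 119 and 116 CPM with TNFa, against 178, 168, 196, 184 and 195 with PBS (-0.66, SE 0.10, adjusted p = 0.00029). It was the only member lowered there. In MFpc it had 159, 112 and 115 CPM with TNFa and 187, 157, 160, 158 and 149.7 with PBS, where 1 library lay within the PBS range (-0.33, SE 0.11, adjusted p = 0.019). That call was lost without TNFa library 2 (adjusted p = 0.156) or 3 (adjusted p = 0.13). The calls in Mo.6C+ and pDC were kept under all 15 other settings, library totals and each library left out among them. The estimate with TNFa was below 0 in 14 of 14 cell types, also under the 7 other settings run on all types. In some lymphocytes it was small, at -0.07 in T.4, -0.04 in Tgd and -0.03 in MZB, none of them called. In NK cells it was -0.34 (adjusted p = 0.0589). The change depended on cell type for IL1b (adjusted p = 6.81e-07) and TNFa (adjusted p = 6.04e-06), and for IL6 the same test gave an adjusted p of 0.596.

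Cox7a2 (chr9:79755361-79759878, GRCm38, minus strand) encodes the liver form of complex IV subunit VIIa, to which Cox7a2l is related. In Mo.6C+ it had 168, 223 and 175 CPM with IL1b and 209.8, 224 and 202 with TNFa, against 149, 136, 142, 130.0 and 145 with PBS. Every library with either cytokine was above the PBS range (IL1b 0.43, adjusted p = 0.00769; TNFa 0.60, SE 0.11, adjusted p = 0.000411). Of 15 other settings, 14 kept the Cox7a2 call with TNFa and 11 that with IL1b. The estimates went down to 0.17 and 0.19, and 0 turned sign. The ratio of Cox7a2 to Cox7a2l counts, which no scaling of libraries changes, was 1.98 ± 0.52 with IL1b, 1.04 ± 0.18 with IL6 and 2.17 ± 0.32 with TNFa, against 0.634 ± 0.080 with PBS (SD, n = 3, 3, 3 and 5). In pDC it was 1.56 ± 0.08 with TNFa and 0.793 ± 0.131 with PBS, and in NK cells 1.97 ± 0.55 and 1.04 ± 0.13 (SD, n = 3 and 5). In T.4 it was 0.362 with TNFa and 0.372 with PBS. In Treg it was 0.661 (0.548 to 0.837) with TNFa and 0.445 (0.376 to 0.491) with PBS.

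**Figure D3:**
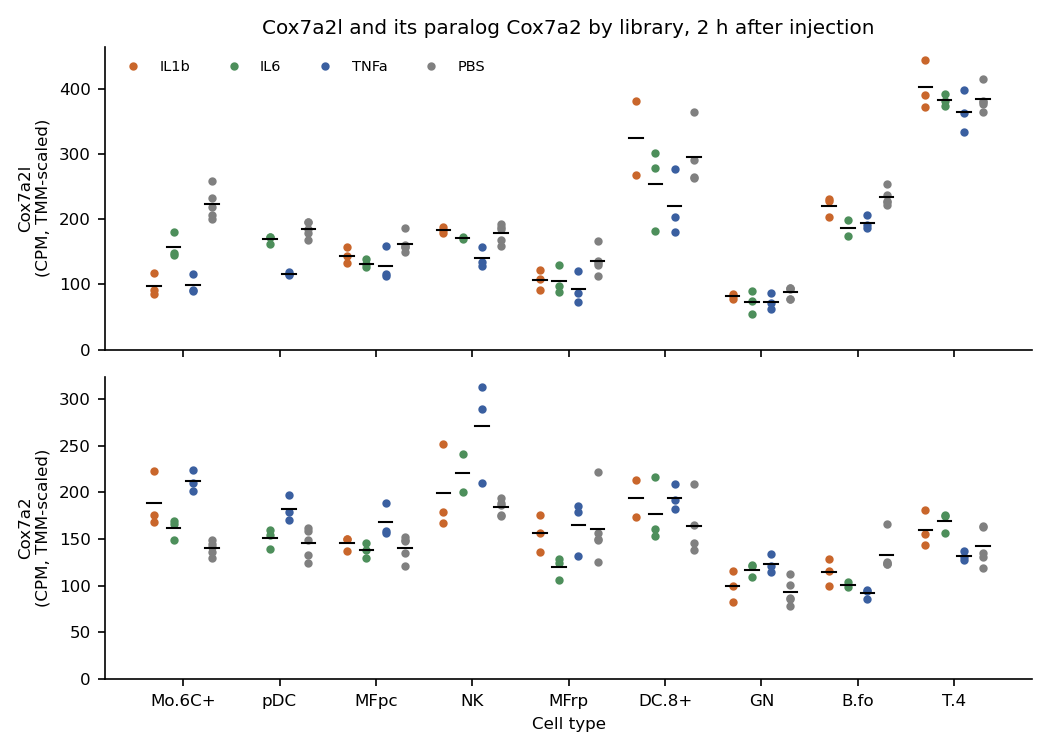
CPM (TMM-scaled within the cell type) of Cox7a2l (top) and Cox7a2 (bottom) in each library of 9 cell types with IL1b, IL6, TNFa and PBS; a point is a library and the black line the mean. Cox7a2l in Mo.6C+ lies at 84.8 to 118 with IL1b and 90.1 to 116 with TNFa, below 200.4 to 258 with PBS, also when scaled to library totals. With TMM scaling Cox7a2 lies above its PBS range there. Its call was kept in 14 of 15 other settings with TNFa and 11 with IL1b.

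In neutrophils members went in both directions with TNFa, and those called with IL6 all rose. TNFa raised 14 of 72 members, against 18.5% of all genes, and lowered 8, against 19.0%; 7 of the raised and 7 of the lowered were among the 36 complex I genes, close to the shares of all genes each way. IL6 raised 12, against 5.23%, and lowered 0 in edgeR and 0 in DESeq2, against 4.28%, with 5 below 0 at an unadjusted p under 0.05. IL1b raised 5, against 12.9%, and lowered 2, against 9.44%. The member shares with TNFa and IL1b were thus at or below those of all genes, and the raised share with IL6 was above it.

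The genes raised in GN included the accessory subunits Ndufv3, Ndufs4, Ndufb3 and Ndufa11. Ndufv3 had 33.0, 23.8 and 21.3 CPM with IL1b, 67.8, 71.4 and 57.5 with IL6 and 33.2, 31.5 and 29.2 with TNFa, against 17.6, 11.8, 18.4, 21.7 and 19.3 with PBS. Every IL6 library lay far above the rest (1.88, SE 0.22, adjusted p = 0.000116); TNFa gave 0.82 (SE 0.23, adjusted p = 0.00966), and IL1b, whose range touched that with PBS, gave 0.55 (adjusted p = 0.0975). Ndufs4, an accessory subunit that stabilises the NADH-oxidising module, had 33.5, 36.8 and 40.2 CPM with IL1b, 45.3, 51.0 and 38.4 with IL6 and 57.8, 57.7 and 47.3 with TNFa, against 25.0, 15.6, 22.6, 27.6 and 17.7 with PBS. It was called with all 3 cytokines (0.76, 1.05 and 1.32; adjusted p = 0.0171, 0.0061 and 0.000114). Ndufb3, of the membrane arm, rose with TNFa, at 60.2, 55.9 and 56.9 CPM, while IL1b gave 19.6, 19.6 and 16.3 and IL6 27.3, 26.5 and 23.3, against 17.1, 20.7, 20.9, 19.0 and 29.9 with PBS (TNFa 1.43, SE 0.22, adjusted p = 5.24e-05). Its IL1b and IL6 libraries overlapped those with PBS, and the difference between the cytokines was not tested. Ndufv2, a core subunit of the NADH-oxidising module, had 48.8, 55.7 and 53.4 CPM with IL6, against 29.1, 20.5, 25.1, 28.0 and 19.1 with PBS (1.11, SE 0.20, adjusted p = 0.00288). Ndufa11, a membrane subunit at 1.15 to 5.39 CPM with PBS and overlapped by Vmac on the other strand, had 21.9, 15.8 and 13.2 CPM with IL6 (2.42, SE 0.45, adjusted p = 0.00295).

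Uqcrb of complex III rose with each cytokine in GN. It had 13.9, 19.8 and 13.2 CPM with IL1b, 23.8, 21.5 and 21.5 with IL6 and 15.8, 19.2 and 19.1 with TNFa, against 8.01, 5.12, 6.46, 7.29 and 5.51 with PBS. No cytokine library reached down to the PBS range (1.26, 1.78 and 1.47, each SE 0.29; adjusted p = 0.0043, 0.00132 and 0.000731). Atp5pb had 211, 189 and 215 CPM with TNFa, against 128, 142, 132, 105 and 134 with PBS (0.68, SE 0.13, adjusted p = 0.00059).

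The genes lowered in GN with TNFa included core subunits of complex I that carry electrons to ubiquinone or form the arm that holds it. Ndufs8, an iron-sulfur subunit, had 13.7, 9.79 and 7.68 CPM with TNFa, against 51.6, 24.0, 22.0, 30.9 and 28.0 with PBS (-1.58, SE 0.32, adjusted p = 0.000886). Ndufs7 had 30.9, 26.9 and 24.0 CPM with TNFa and 48.5, 48.4, 46.9, 74.6 and 46.2 with PBS (-0.96, SE 0.25, adjusted p = 0.00521). Ndufs3 had 4.49, 4.89 and 0 CPM with TNFa, against 12.3, 13.6, 7.79, 17.8 and 11.0 with PBS (-1.99, SE 0.69, adjusted p = 0.0307). In these 3 genes, also described because they were called, the groups did not overlap. Membrane arm accessory genes fell too: Ndufb5 had 9.50, 4.19 and 6.76 CPM with TNFa and 22.2, 21.7, 19.0, 18.8 and 24.3 with PBS (-1.62, SE 0.33, adjusted p = 0.000957), and Ndufa10 had 9.50, 6.99 and 7.38 with TNFa and 21.1, 26.0, 21.9, 9.97 and 22.0 with PBS (-1.34, SE 0.32, adjusted p = 0.00317). Many of these levels are low, so counting error is large.

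Members took 0.297% to 0.308% of the counts in GN with TNFa, against 0.441% to 0.512% with PBS. Scaled to library totals, which moved the median of all genes by -0.99, 1 member was raised and 40 lowered with TNFa, and 2 and 21 with IL1b, where that shift was -0.49. With IL6, where the shift was -0.07, the raised count was 7 without IL6 library 1, 4 without 2, 6 without 3, and 7, 6 and 7 without PBS library 2, 4 and 5. Without IL1b library 2 the raised count with IL1b was 2, and without PBS library 4 or TNFa library 3 the lowered count with TNFa was 5. The red pulp macrophage list fell in GN through Slc40a1, an iron exporter, which stood at 212 to 342 CPM with TNFa, against 2657 to 3287 with PBS; its part in the result was not tested.

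With the main filter on low counts, NK cells had the most members raised in the screen. With TNFa, 24 of 73 members rose, against 7.65% of all genes, and 0 fell in edgeR, against 7.93%, with 1 below 0 at an unadjusted p under 0.05 and 1 lowered in DESeq2. In all, 68 of 73 estimates were above 0, with a median of 0.36, against -0.04 over all genes. The rise reached every complex: 9 of 36 members of complex I, 3 of 8 of complex III, 6 of 12 of complex IV and 6 of 17 of complex V. Ndufb7, of the membrane arm of complex I, had 165, 159 and 209 CPM with TNFa, against 124, 118, 122, 115 and 123 with PBS (0.56, SE 0.12, adjusted p = 0.00334). Cox6b1, of complex IV, had 292, 298 and 333 CPM with TNFa and 208, 240.4, 201, 226 and 211 with PBS (0.50, SE 0.11, adjusted p = 0.00349). Uqcrq, of complex III, had 131, 122 and 130 CPM with TNFa and 85.7, 81.4, 84.5, 95.9 and 73.8 with PBS (0.60, SE 0.13, adjusted p = 0.00426). Atp5g1, which encodes subunit c of the ATP synthase rotor, had 71.7, 71.1 and 103 CPM with TNFa and 63.5, 43.1, 40.7, 41.3 and 36.7 with PBS (0.86, SE 0.21, adjusted p = 0.00692). In these 4 genes, described because they were called, every TNFa library stood above every PBS library. The share of all genes without overlap was not counted.

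Of the 24, 9 were also raised in Mo.6C+ with TNFa, which is 37.5% of the NK list and 50.0% of the other. Without TNFa library 3 the raised count was 5, with no filter on low counts it was 9, and with the replicate block it was 6. Depth leaned lower with TNFa, at 2432070 to 4430411 counts against 4120737 to 5655051 with PBS, and its part was not tested. The Treg marker list moved too, at 38.6 to 63.8 CPM with TNFa against 18.2 to 23.3 with PBS, carried by Il2ra, with Foxp3 at 0 in every TNFa library.

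In pDC, TNFa raised 9 of 73 members, against 7.23% of all genes, and lowered 1, Cox7a2l, against 7.18%; 67 estimates were above 0. Atp5b had 1069, 1022 and 1038 CPM with TNFa, against 729.9, 666, 899.8, 859 and 721 with PBS (0.43, SE 0.10, adjusted p = 0.00735). Cox6a1, the widely expressed form of complex IV subunit VIa, had 248, 268 and 261 CPM with TNFa and 189, 208, 174, 159.9 and 217 with PBS (0.45, SE 0.11, adjusted p = 0.011). Its tissue-restricted counterpart Cox6a2, known from heart and skeletal muscle, was abundant in pDC and overlapped between the groups, at 364, 350.0 and 377 CPM with TNFa and 477, 463, 349.6, 314 and 367 with PBS. The raised count was 14 without PBS library 2, 4 without PBS 3, 3 without TNFa 1 and 2 without TNFa 2, and 1 when scaled to library totals. The mast cell list stood at 77.8 to 102 CPM with TNFa and 9.91 to 28.7 with PBS, carried by Kit, with Cpa3, Cma1 and Mcpt4 at 0 in every TNFa library.

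Follicular B cells went the other way. With TNFa, 0 members rose in edgeR or DESeq2 or at an unadjusted p under 0.05, against 1.81% of all genes, and 9 of 72 fell, against 1.70%; 66 of 72 estimates were below 0, with a median of -0.28 against 0.01 over all genes. Complex IV gave 6 of the 9. Cox4i1, a nuclear subunit of complex IV with regulatory roles, had 354, 344 and 384 CPM with TNFa, against 426, 471, 435, 494 and 450.5 with PBS (-0.33, SE 0.09, adjusted p = 0.0344). Cox6c, a membrane subunit, had 76.3, 96.7 and 95.4 CPM with TNFa and 138, 115, 119, 146 and 134 with PBS (-0.54, adjusted p = 0.0343). Ndufa13 of complex I, also known as GRIM-19, had 92.3, 111 and 123 CPM with TNFa and 164, 149, 140.4, 163 and 190.5 with PBS (-0.57, SE 0.14, adjusted p = 0.0245). Atp5e, the epsilon subunit of ATP synthase, had 90.4, 106 and 115 CPM with TNFa and 153, 166, 133, 153 and 210.5 with PBS (-0.65, SE 0.16, adjusted p = 0.0316). In these 4 genes, described because they were called, the groups did not overlap.

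Of these 9, 6 were among the 24 raised in NK cells (Atp5e, Atp5j2, Cox6a1, Cox6b1, Cox7a2 and Ndufa13), which is 66.7% of the B.fo list and 25.0% of the NK list. In B.fo, IL6 libraries gave Cox6b1 at 135 and 123 CPM and TNFa libraries 123, 128 and 134, against 166, 189, 144, 196 and 219 with PBS; IL6 was not called (adjusted p = 0.181). Depth moved with treatment, at 6872067 to 8014028 counts with TNFa against 2555640 to 4485774 with PBS, and its part in the result was not tested. In NK cells depth leaned the other way. The count was 0 without TNFa library 1 or 2, 1 without TNFa 3, 2 without PBS 2 or 5 and 4 without PBS 4, and it was 18 in DESeq2 and 1 with no filter on low counts.

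Elsewhere few members were called. With TNFa, MC raised 1 of its tested members, against 2.58% of all genes: Uqcrc1, a core subunit of complex III, at 422, 369.7 and 393 CPM with TNFa and 293, 304, 306 and 269.6 with PBS (0.43, SE 0.12, adjusted p = 0.0474). DC.8+ raised 1, against 8.05%: Cox7c, a small complex IV subunit, at 105, 75.8 and 69.1 CPM with TNFa and 61.8, 55.9, 41 and 45.0 with PBS (0.71, SE 0.21, adjusted p = 0.036). That call was lost without the 5 libraries rich in erythroid or NK genes, each kind left out in turn; NK markers summed to 76.2 to 358 CPM with TNFa and 47.4 to 488 with PBS. MFrp lowered 1 with IL1b, against 4.22% (Ndufc2, at 48.6, 46.6 and 52.5 CPM against 71.8, 89.6, 96.8, 76.8 and 66.2 with PBS), and 1 with TNFa, against 10.1% (Ndufs1, at 99.8, 72.8 and 58.5 CPM against 157, 189, 134, 121 and 84.9). Both calls were lost without the 3 haemoglobin-rich PBS libraries; erythroid genes summed to 1489 to 6141 CPM with IL1b and 736 to 8992 with TNFa, against 1221 to 46395 with PBS.

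Over time after TNFa, most calls in monocytes came at 2 h and 8 h, and those in macrophages at 8 h, while the median member was still above PBS at 24 h in both. The medians in Mo.6C were 0.58 at 2 h, 0.18 at 4 h, 0.54 at 8 h and 0.32 at 24 h, where 61 of 72 estimates were above 0, against all-gene medians of -0.10, -0.03, -0.00072 and -0.02. In MF they were 0.12, 0.08, 0.32 and 0.28, with 67 of 72 above 0 at 24 h, against -0.06, -0.02, -0.02 and -0.01. In Mo.6C, 29 of 72 members were raised at 2 h, against 19.7% of all genes, 7 at 4 h, against 15.9%, 19 at 8 h, against 11.5%, and 1 (Cox5a) at 24 h, against 2.74%. The lowered counts were 2, 2, 1 and 0, against 20.6%, 16.6%, 10.5% and 1.72%. In MF, 2 were raised at 2 h, against 18.1%, 4 at 4 h, against 18.7%, 18 at 8 h, against 15.6%, and 0 at 24 h in edgeR, against 3.81%, with 13 above 0 at an unadjusted p under 0.05 and 2 raised in DESeq2; the lowered counts were 0, 1, 0 and 0, against 18.1%, 16.9%, 12.8% and 2.86%. The lowered counts of 0 in edgeR were also 0 in DESeq2 and at an unadjusted p under 0.05. At 8 h, 64 of 72 estimates in Mo.6C and 63 of 72 in MF were above 0, and 9 members rose in both, which is 47.4% of the Mo.6C list and 50.0% of the MF list. Of the 18 members raised in Mo.6C+ in the screen, 14 were also raised in Mo.6C at 2 h. That is 77.8% of the screen's list and 48.3% of the other. Of the 3 lowered in Mo.6C+, only 1, Cox7a2l, was also lowered in Mo.6C at 2 h. That is 33.3% of the screen's list and 50.0% of the other. The experiments share no library. At 24 h against 2 h in Mo.6C, 11 members were lower, against 17.5% of all genes, and 1, Cox7a2l, was higher, against 18.9%. In MF 4 were higher at 24 h than at 2 h (Ndufv3 by 0.83, Uqcrq by 0.88, Ndufa6 by 0.62 and Ndufs7 by 0.65), against 17.2%, and 1, Uqcrfs1, was lower, also against 17.2%. All times of a cell type shared 2 PBS libraries sorted at 24 h. Scaled to library totals, the member medians in Mo.6C were 0.13, -0.04, 0.60 and 0.32 at 2, 4, 8 and 24 h. All-gene medians were then -0.52, -0.25, 0.06 and -0.01. In MF the member medians were then -0.37, -0.19, 0.11 and 0.19, against -0.55, -0.29, -0.23 and -0.11 over all genes.

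Cox7a2l in Mo.6C had 229 and 203 CPM with PBS, 94.9 and 93.4 at 2 h, 64.8 and 57.8 at 4 h, 81.9 and 91.6 at 8 h and 174 and 176 at 24 h. It was lowest at 4 h (-1.82, SE 0.19, adjusted p = 2.63e-05), was called at 2 h (-1.20, SE 0.19, adjusted p = 0.000349) and 8 h (-1.32, SE 0.19, adjusted p = 0.00039), and was no longer called at 24 h (-0.31, adjusted p = 0.431). The 24 h libraries were above those at 2 h (0.89, adjusted p = 0.0027). In MF it had 132 and 127 CPM with PBS, 116 and 118 at 2 h, 72.3 and 78.2 at 4 h, 91.3 and 109 at 8 h and 84.9 and 122 at 24 h. Here 4 h was the only time called (-0.78, SE 0.19, adjusted p = 0.0064). The calls of Cox7a2l were kept under every other setting run, 11 in Mo.6C and 7 in MF.

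Cox7a2 took the opposite course in Mo.6C, at 111 and 111 CPM with PBS, 295 and 208 at 2 h, 212 and 199 at 4 h, 189 and 201 at 8 h and 154 and 133 at 24 h. The ratio of Cox7a2 to Cox7a2l averaged 0.513 with PBS, 2.67 at 2 h, 3.35 at 4 h, 2.25 at 8 h and 0.82 at 24 h. Of the complex V genes, Atp5g1 had 30.3 and 34.5 CPM with PBS, 90.4 and 63.8 at 2 h, 60.3 and 69.3 at 4 h, 82.7 and 76.3 at 8 h and 51.1 and 36.5 at 24 h; every library from 2 h to 8 h was far above PBS (8 h, 1.30). Atp5b rose more slowly, at 607 and 631 CPM with PBS, 707 and 1083 at 2 h, 1083 and 1036 at 4 h, 1402 and 1295 at 8 h and 938 and 798 at 24 h (8 h, 1.12). Ndufa6 fell at 4 h, at 118 and 129 CPM with PBS, 104 and 82.7 at 2 h, 66.3 and 70.5 at 4 h, 95.0 and 91.5 at 8 h and 136 and 105 at 24 h (4 h, -0.86, SE 0.21, adjusted p = 0.00788).

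Uqcrfs1 and Cox5a were the members called at 2, 4 and 8 h in macrophages. In MF Uqcrfs1 had 95.0 and 87.3 CPM with PBS, 136 and 136 at 2 h, 134 and 127 at 4 h, 181 and 161 at 8 h and 98.8 and 86.6 at 24 h. It changed at 2 h (0.58, adjusted p = 0.0126), 4 h (0.52, adjusted p = 0.0217) and 8 h (0.91, SE 0.16, adjusted p = 0.00112), and its 24 h libraries lay within 1 SE of PBS (0.02). Cox5a, a complex IV subunit, kept its level in MF, at 73.6 and 72.7 CPM with PBS, 102 and 105 at 2 h, 107 and 113 at 4 h, 107 and 113 at 8 h and 119 and 96.7 at 24 h (24 h, 0.56, adjusted p = 0.0593). In Mo.6C, Cox5a was the only member called at 24 h, at 156 and 122 CPM, against 76.8 and 77.5 with PBS (0.85, SE 0.20, adjusted p = 0.0297). Of the 18 members raised in MFpc at 2 h in the screen, 2 were raised in MF at 2 h (Cox5a and Uqcrfs1, 11.1% of the screen's list and 100% of the other) and 11 at 8 h (61.1% of each list). None of the 4 lowered in MFpc was lowered in MF at 2 h or 8 h.

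With 2 libraries per group, 1 library often set the count. Without PBS library 1 or 2 the raised counts in Mo.6C were 9 and 10 at 2 h, 1 and 2 at 4 h and 3 and 6 at 8 h, and without either PBS library that in MF at 8 h was 1. Without TNFa library 1 or 2 they were 16 and 49 at 2 h and 4 and 3 at 4 h, and without TNFa library 1 they were 12 in Mo.6C and 4 in MF at 8 h. Scaled to library totals they were 8 at 2 h, 4 at 4 h and 30 at 8 h in Mo.6C, and 2 in MF at 8 h. The sum of the monocyte markers stood at 17160 to 17343 CPM with PBS and 7826 to 8641 at 4 h in Mo.6C, and that of the macrophage markers at 21453 to 22020 with PBS and 9100 to 11204 at 8 h in MF.

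**Figure D4:**
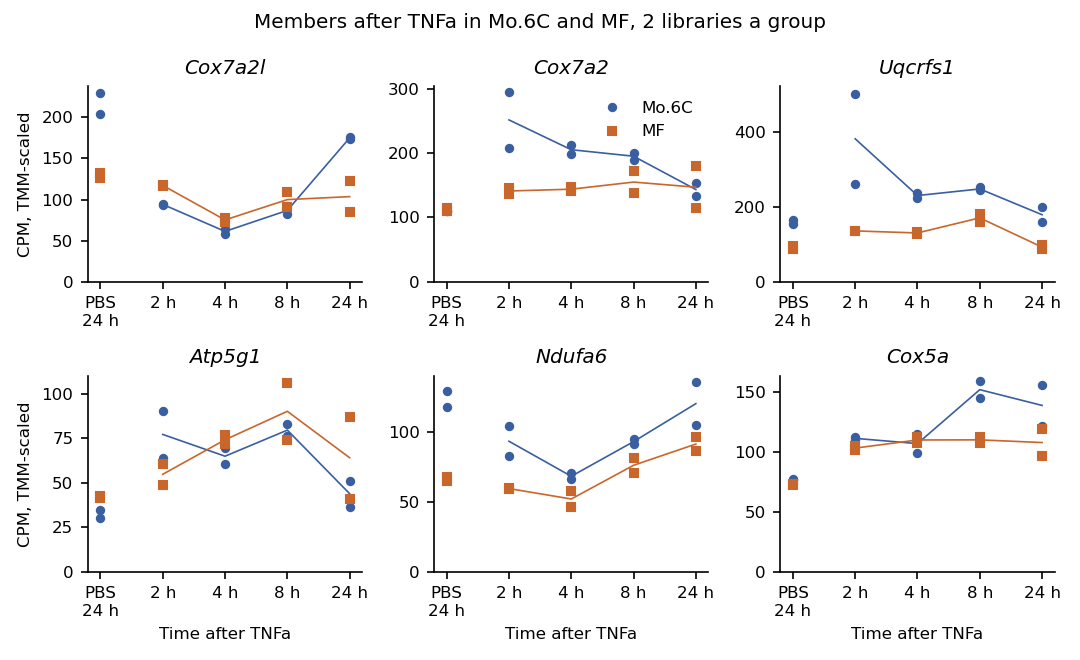
CPM (TMM-scaled within the cell type) of 6 respiratory chain genes in Mo.6C and MF with PBS at 24 h and 2, 4, 8 and 24 h after TNFa; points are libraries, 2 per group, and lines join the means with TNFa. Cox7a2l in Mo.6C is lowest at 4 h (64.8 and 57.8, against 229 and 203 with PBS) and Uqcrfs1 in MF is highest at 8 h (181 and 161, against 95.0 and 87.3).

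With LPS, Cox7a2l was the only member called. It had 74.9, 88.5 and 84.8 CPM in the LPS libraries, against 212, 132 and 183.2 in the controls, with no overlap (-1.09, SE 0.25, adjusted p = 0.0147). No member was raised in edgeR, against 10.2% of all genes. There were 6 above 0 at an unadjusted p under 0.05, and 1 was raised in DESeq2. In edgeR 1 was lowered, against 8.38%. With the main scaling 66 of 72 estimates were above 0, with a median of 0.35. Scaled to library totals, the median member stood at -0.05, against -0.48 over all genes. Cox7a2 had 303, 211 and 185 CPM with LPS and 130.2, 221 and 113 in the controls, which overlapped, and the ratio of the pair was 2.87 ± 1.03 with LPS and 0.970 ± 0.611 in the controls (SD, n = 3 each). Without control 1 or 3 or LPS library 2 or 3 the Cox7a2l call was lost, at adjusted p-values of 0.0579 to 0.0823, so it rests on the number of libraries.

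The other genes of the pathway were taken from lists, and their values are log2 fold changes against PBS; scaling to library totals would move them by about the shift of all genes given above, which is as large as some of them. With TNFa, 26.6% of all genes were raised and 26.7% lowered in MFpc, 24.3% and 24.4% in Mo.6C+, 18.5% and 19.0% in GN and 7.65% and 7.93% in NK cells. Of the 13 subunits encoded in mitochondrial DNA, 5 of 7 tested rose in GN with each of IL1b, IL6 and TNFa, with medians of 1.15, 1.76 and 1.21. mt-Co1, the catalytic subunit of complex IV, stood at 334 to 483 CPM with IL1b, 370 to 510 with IL6 and 346 to 440 with TNFa in GN, against 101 to 188 with PBS. In MFpc with TNFa 6 of 8 rose (median 0.34, mt-Nd5 0.51) and in Mo.6C+ 3 of 9. In NK cells, where 24 nuclear members rose, 0 of 7 mitochondrial ones were called in edgeR, and 1 was above 0 at an unadjusted p under 0.05. In B.fo with TNFa, where nuclear members fell, mt-Nd2 (0.54) and mt-Co1 (0.40) rose, and in MF at 8 h, where 18 nuclear members rose, mt-Nd2 (-0.77) and mt-Nd4 (-0.64) fell.

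Complex II has 4 genes, and few were called: Sdhb rose in NK cells with TNFa (0.55), Sdhc (0.80) and Sdhd (0.70) rose in Mo.6C at 8 h, and Sdha fell in GN with TNFa (-0.99). Cyc1, cytochrome c1 of complex III, which the symbols did not include, rose with TNFa in MFpc (0.53), Mo.6C+ (0.57) and pDC (0.36), with IL6 in GN (0.92), and at 8 h in Mo.6C (1.08) and MF (0.74). Among 14 genes of cytochrome c and ubiquinone, 4 rose and 3 fell in MFpc with TNFa: Cycs, cytochrome c, rose by 1.48 and Coq10b, a ubiquinone-binding protein, by 1.63, and Coq9, needed to make ubiquinone, changed by -0.81. In Mo.6C+, 3 rose and 4 fell, with Coq10b at 1.33, Cycs at 0.89 and Coq9 at -1.27.

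Of the 43 assembly factors listed, 7 rose and 8 fell of 41 tested in MFpc with TNFa, and 9 rose and 7 fell of 41 in Mo.6C+, each below the share of all genes. Uqcc3, needed for complex III assembly, fell in MFpc (-1.02), Mo.6C+ (-1.67) and GN (-1.43). Tmem126b of complex I assembly (-1.46) and Surf1 of complex IV assembly (-1.09) fell in MFpc, and Cox17, a copper chaperone for complex IV, rose in Mo.6C+ (1.14). In GN with TNFa, 1 rose and 6 fell of 32, with Tmem70 of ATP synthase assembly at -3.39. In NK cells, 5 rose and 1 fell, with Ndufaf4 of complex I assembly at 1.84.

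Of 12 regulators of mitochondrial genes, 5 of 11 tested rose in MFpc with TNFa, where Pprc1, a coactivator of the PGC-1 family, rose by 1.61, Nrf1 by 0.80 and Gabpb1, a subunit of the GABP factor, by 0.88. In Mo.6C+, 5 rose and 1 fell, with Gabpb1 at 2.26, Pprc1 at 1.85 and Esrra, a nuclear receptor of mitochondrial genes, at 1.29. Pprc1 also rose in NK cells (1.76) and pDC (1.08). Ppargc1b, another coactivator of that family, fell in pDC with TNFa (-1.80) and rose in Mo.6C at 8 h (3.67). No relation between these genes and the members was tested.

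Whether a member's response depended on cell type was tested over all screen libraries. For TNFa, 50 of 73 members (68.5%) passed, against 36.3% of all genes; for IL6, 21 (28.8%), against 6.88%; for IL1b, 9 (12.3%), against 22.8%. The members with the smallest adjusted p for TNFa were Ndufs8 (2.33e-10), Ndufb5 (1.70e-09) and Uqcrb (8.02e-09), and those for IL6 were Ndufv3 (6.27e-14), Uqcrb (3.76e-13) and Ndufa11 (1.57e-11). All 5 of these genes were called in GN with the named cytokine.

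With PBS alone, the summed level of the members differed between cell types, highest in MFpc, DC.8+ and Mo.6C+ and lowest in GN and MC. Scaled over all PBS libraries, the 73 members summed to 13191 ± 565 CPM in MFpc, 12769 ± 2059 in DC.8+ and 11807 ± 719 in Mo.6C+, against 7850 ± 586 in GN and 7650 ± 228 in MC (SD, n = 5, 4, 5, 5 and 4). The order of means between these was pDC (10687), MFrp (10277), T.8 (10104), Treg (9884), NK (9612), T.4 (9555), Tgd (8941), B.fo (8508) and MZB (8500). The ranges of libraries overlapped between all neighbours in this order. Against the mean of the other 13 types, 55 of 73 members were higher and 0 lower in edgeR in MFpc, against 27.3% and 18.7% of all genes, 52 and 1 in DC.8+ (25.0% and 11.2%), 34 and 0 in Mo.6C+ (22.9% and 14.6%), 13 and 44 in GN (31.7% and 31.3%), 11 and 34 in MC (26.0% and 23.7%), 3 and 28 in B.fo (21.8% and 14.1%) and 5 and 24 in MZB (21.2% and 14.2%). The counts of 0 were 0 in MFpc and 2 in Mo.6C+ at an unadjusted p under 0.05, and 0 in both with RLE factors. Scaled to library totals, MFpc had 16 higher and 17 lower, MZB 9 and 7 and B.fo 7 and 15, so the places of these 3 rest on the scaling. DC.8+ then had 38 and 2 and Mo.6C+ 21 and 3. Treg had 45 and 1, T.8 40 and 0, pDC 35 and 1, T.4 31 and 4, Tgd 29 and 1 and NK 27 and 3. The places of DC.8+ above Treg and T.8, and of Mo.6C+ above each of these types, thus rest on the scaling too. MC had 6 and 47 and GN 2 and 66.

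**Figure D5:**
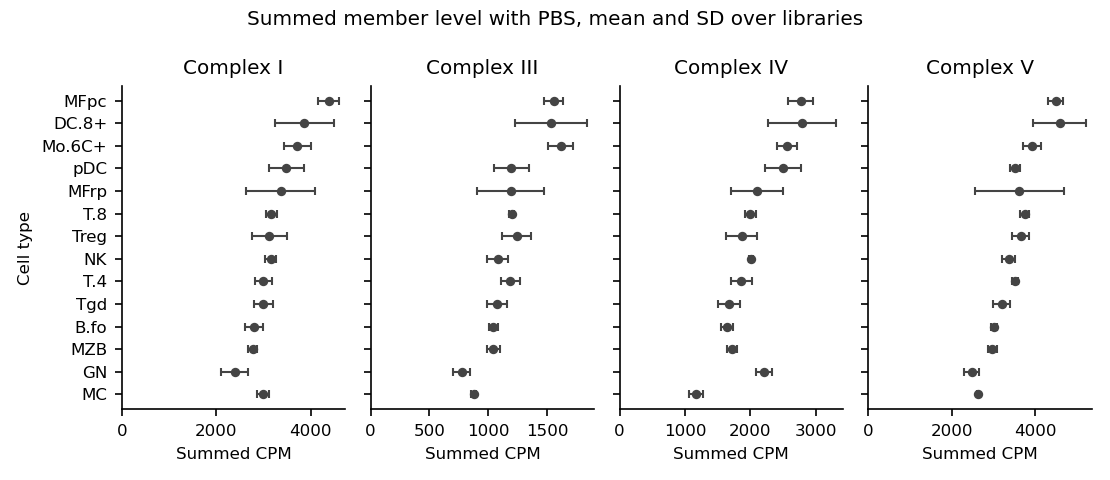
Summed CPM (TMM-scaled over all PBS libraries) of the members of each complex in the 14 cell types with PBS; points are means and bars the SD over 4 or 5 libraries. Complex I sums run from 4381 ± 228 in MFpc to 2395 ± 286 in GN, an order that rests on TMM scaling for the highest types.

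Single members departed from this order. Cox8a, a small complex IV subunit, was highest in GN at 464 ± 29.8 CPM and lowest in MC at 114 ± 17.4 (SD, n = 5 and 4), and GN stood above the mean of the other types by 1.11 (SE 0.08, adjusted p = 4.8e-19). MC, low in most members, was high in Atp5pb (1.47, SE 0.08). MFpc led in Ndufa1 (1.52, SE 0.09) and Uqcr11 (1.38, SE 0.11), DC.8+ in Ndufc2 (1.23) and Uqcrb (1.10), and GN was furthest below the others in Ndufa5 (-3.72). MFpc was the highest type for 28 members and DC.8+ for 19, and GN was the lowest for 32 and MC for 20. Cox7a2l was highest in DC.8+ at 337 ± 52.7 CPM and T.4 at 326 ± 14.1, and lowest in MC at 86.7 ± 18.9 (SD, n = 4, 5 and 4).

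Cox6a2 (chr7:128205435-128206387, GRCm38, minus strand) was nearly restricted to dendritic cells. It stood at 385 ± 72.8 CPM in pDC and 41.5 ± 13.6 in DC.8+ (SD, n = 5 and 4), averaged 2.90 to 3.64 in NK, MFrp and T.8, 1.27 in MC and 0.243 or less in MFpc and Tgd, and was at 0 in the other 6 types. Cox6a2 passed the minimum of 5 CPM, at a mean of 26.2 over the screen, only through dendritic cells. Its high level there is thus part of how it was chosen. It made up 385 of the 2498 CPM summed for complex IV in pDC. Itgad overlaps it on the other strand. Subunit c of ATP synthase, an identical mature protein from 3 genes, was mostly from Atp5g3, at 55.4% of the summed level per kilobase in MC to 77.3% in Tgd with PBS. Atp5g1 took 10.7% in GN to 35.2% in MC, and Atp5g2 9.39% in MC to 20.7% in MZB. Compared between genes per kilobase of exon, the highest mean levels over the 14 types were those of Cox8a (384 CPM per kb), Cox4i1 (338) and Atp5a1 (287), and the lowest those of Ndufb4 (8.87), Ndufb2 (6.06) and Atp5l (1.96). The annotated exon lengths used were 619 bases for Cox8a, 5628 for Ndufb2 and 6443 for Atp5l. They were 4912 for Atp5g1 and 2181 for Atp5g3. These ranks and the shares of subunit c depend on the lengths, and other lengths were not tried.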

How the data were processed

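The table deposited by the authors holds raw counts by gene symbol, whole numbers whose totals differ. Per the submitters' processing notes, the authors aligned reads with STAR 2.7.3a to mm10 and counted them with featureCounts; its version, the annotation, the strand setting and the handling of multi-mapping reads are not stated in any source at hand, so overlapping genes are uncertain. Titles gave the tissue: 158 screen libraries titled spleen carry a peritoneal label.

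The test was edgeR 4.0.16 in R 4.3.3, with TMM factors, filterByExpr, glmQLFit and glmQLFTest, Benjamini-Hochberg adjustment over all genes tested, threshold 0.05. Each cell type of the screen and of the time course had 1 fit, and LPS 1; 1 fit of all screen libraries tested cell type dependence. SE is the log2 fold change over the root of F. CPM are per TMM-scaled library of the fit. Positions and exon lengths came from GENCODE vM21. Replicate numbers paired no comparison (same-number correlations -0.358 to 0.358).

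Alternatives were DESeq2 1.42.0, RLE factors, library totals, TMM without mitochondrial and ribosomal genes, no filter, only the compared groups, the replicate block and each library left out. The procedure was tested on simulated data. Named were up to 4 raised and 4 lowered members with the smallest adjusted p per comparison, 6 per cytokine by cell type dependence, the extremes of level, isoform pairs and up to 3 genes per other list; the text gives a part of these and the same genes in other comparisons. The members and lists were chosen with earlier results of these data known.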

Additional observations from a re-analysis of the deposited data

Results flagged for a closer look

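In the groups of 4 or more libraries tested for a lone value, 3 of 41 had 1 (chance gives about 1 in 20). Cox7a2l in MFpc with PBS had a highest library of 187.1 CPM. Ndufa6 in Mo.6C+ with PBS had a highest library of 173.0 CPM, and Ndufs7 in GN with PBS one of 74.6 CPM. Each lies on the far side of its group from the TNFa libraries of the same cell type.

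The response of some members differed between cell types, by the test of the cell type by treatment terms (edgeR, adjusted over all genes). For IL1b the smallest adjusted p-values were 4.78e-08 for Uqcrb, 6.81e-07 for Cox7a2l, 1.10e-06 for Ndufa11, 0.000623 for Ndufv3, 0.00168 for Atp5pb and 0.0177 for Atp5b. For IL6 they were 6.27e-14 for Ndufv3, 3.76e-13 for Uqcrb, 1.57e-11 for Ndufa11, 8.91e-06 for Ndufv2, 6.12e-05 for Ndufc2 and 6.79e-05 for Ndufa4. For TNFa they were 2.33e-10 for Ndufs8, 1.70e-09 for Ndufb5, 8.02e-09 for Uqcrb, 2.19e-08 for Ndufs3, 6.38e-08 for Ndufb3 and 2.35e-06 for Ndufb10. In GN the log2 fold changes with IL6 were 1.88 for Ndufv3, 1.78 for Uqcrb, 2.42 for Ndufa11, 1.11 for Ndufv2 and 0.87 for Ndufa4, all called there. Ndufc2, at 6.21, 10.9 and 7.87 CPM with IL6 and 4.93, 0, 1.14, 2.49 and 2.53 with PBS in GN, was not called (adjusted p = 0.15). Ndufb10 fell in GN with TNFa, at 16.4, 21 and 12.0 CPM against 36.2, 24.6, 19.6, 46.2 and 26.2 with PBS.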

How the results depend on the processing

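Of 254 calls of a member in a comparison, 253 were kept in DESeq2, 251 with TMM factors taken without mitochondrial and ribosomal genes, 246 with RLE factors, 197 with only the 2 groups fitted, 174 with a replicate block, 141 with no filter on low counts and 112 with library totals; when 1 library was left out, 981 of the refitted calls were kept and 505 lost. Scaled to library totals, the raised counts were 2 (MFpc TNFa), 2 (Mo.6C+ IL1b), 2 (Mo.6C+ TNFa), 2 (GN IL1b), 1 (GN TNFa), 1 (pDC TNFa), 8 (Mo.6C 2 h), 4 (Mo.6C 4 h), 30 (Mo.6C 8 h) and 2 (MF 8 h), and the lowered counts 40 (GN TNFa), 3 (B.fo TNFa), 0 (Mo.6C 24 h against 2 h) and 2 (LPS); over cell types they were 4 raised and 43 lowered with IL1b, 1 lowered with IL6, and 24 raised and 127 lowered with TNFa. With no filter on low counts the raised counts were 10 (MFpc TNFa), 9 (NK TNFa), 5 (Mo.6C+ IL1b), 8 (Mo.6C+ TNFa), 2 (GN IL1b), 6 (GN TNFa), 2 (pDC TNFa) and 18 (Mo.6C 2 h), the lowered ones 5 (GN TNFa), 1 (B.fo TNFa) and 2 (Mo.6C 24 h against 2 h), and over cell types 8 and 3 with IL1b and 35 and 15 with TNFa, raised and lowered. With only the 2 groups compared in the fit they were 2 (GN IL1b raised), 4 (pDC raised), 3 (B.fo lowered), 19 (Mo.6C 4 h raised), 33 (Mo.6C 8 h raised), 2 (Mo.6C 24 h against 2 h lowered) and 2 (IL6 over cell types, lowered). DESeq2 gave 17 raised in pDC, 18 lowered in B.fo, and 11 with IL6 and 42 with TNFa lowered over cell types; RLE factors gave 1 lowered with IL6. With the replicate block, whose numbers did not pair the samples, the counts were 6 (NK raised), 5 (Mo.6C+ IL1b raised), 2 (GN IL1b raised), 5 (GN IL6 raised), 5 (GN TNFa lowered), 4 (pDC raised) and 0 (B.fo lowered), and over cell types 9 raised and 5 lowered with IL1b, 5 raised with IL6, and 47 raised and 17 lowered with TNFa.

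Leaving out each library in turn gave raised counts of 10 to 20 (MFpc TNFa), 5 to 25 (NK TNFa), 5 to 11 (Mo.6C+ IL1b), 12 to 21 (Mo.6C+ TNFa), 2 to 5 (GN IL1b), 4 to 12 (GN IL6), 11 to 16 (GN TNFa), 2 to 14 (pDC TNFa), 9 to 49 (Mo.6C 2 h), 1 to 4 (Mo.6C 4 h), 3 to 13 (Mo.6C 8 h) and 1 to 19 (MF 8 h), and lowered counts of 5 to 9 (GN TNFa), 0 to 9 (B.fo TNFa), 0 to 28 (Mo.6C 24 h against 2 h) and 0 to 1 (LPS). For Mo.6C 24 h against 2 h the count was 6 and 0 without 24 h library 1 and 2, and 3 and 28 without 2 h library 1 and 2. With 2 libraries a group, the lone library left is assumed to vary like the other groups.

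Estimates that turned sign did so with library totals. They were Atp5mpl (-0.035), Cox6b1 (-0.068), Cox7a2 (-0.056), Ndufa1 (-0.068), Ndufb6 (-0.0070) and Uqcrc2 (-0.0091) in MFpc with TNFa, Atp5j (-0.077), Atp5mpl (-0.070), Cox5a (-0.16), Ndufs4 (-0.014) and Uqcr10 (-0.10) in Mo.6C+ with TNFa, and Atp5j (-0.38), Atp5pb (-0.11), Cox5b (-0.19), Cox7a2 (-0.37), Ndufa1 (-0.024), Ndufa2 (-0.097), Ndufb7 (-0.028) and Uqcrfs1 (-0.10) in GN with TNFa. Library totals moved the median of all genes in the same comparisons, and fewer samples or more genes tested come with the other settings; beyond that the cause was not tested. Cox7a2l kept its direction and call in Mo.6C+ with IL1b and TNFa and in pDC under all 15 other settings. Low levels limit GN, where several members lie under 10 CPM, and low totals limit MC.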

Other observations

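Other mitochondrial and metabolic genes were counted beside the respiratory chain. Of 18 glycolysis genes, 13 rose and 1 fell in MF at 8 h after TNFa, against 15.6% and 12.8% of all genes. In Mo.6C at 8 h, 11 rose and 1 fell, against 11.5% and 10.5%. The glycolysis medians in MF and Mo.6C were 1.12 and 1.44 on the log2 scale, against 0.32 and 0.54 for the respiratory chain. Slc2a1, the main glucose transporter, changed by 3.92 and Ldha, which makes lactate, by 2.01 in MF; Tpi1 changed by 2.44, Pfkl, of the committed step, by 2.33, and Pdk1, which restrains pyruvate oxidation, by 2.31 in Mo.6C. At 2 h, 7 rose and 3 fell in MFpc, against 26.6% and 26.7% of all genes. There Hk2 changed by 2.52, Slc2a1 by 2.60 and Ldha by 0.97. In Mo.6C+ 5 rose and 6 fell, against 24.3% and 24.4%. In GN, 11 of 16 rose with IL1b, against 12.9% of all genes, with Slc2a1 at 3.11. With TNFa 9 rose and 2 fell there, against 18.5% and 19.0%. Of 13 genes of the TCA cycle, 8 rose in MFpc with TNFa, against 26.6% of all genes. Dld changed by 1.64, Mdh2 by 0.95 and Cs by 0.72. In MF at 8 h 6 rose, against 15.6%, with Mdh2 at 1.53. In Mo.6C at 8 h 3 rose, against 11.5%, with Idh3a at 2.43.

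Genes of the mitochondrial ribosome, 78 in the list, were also counted with TNFa. In NK cells 20 rose and 1 fell of 78, against 7.65% and 7.93% of all genes; at 8 h 20 of 77 rose in MF, against 15.6%, and 17 rose and 1 fell of 77 in Mo.6C, against 11.5% and 10.5%. In MFpc 29 rose and 10 fell of 77, against 26.6% and 26.7%, in Mo.6C+ 22 rose and 17 fell of 77, near the 24.3% and 24.4% of all genes, and in GN 6 rose and 20 fell of 71, against 18.5% and 19.0%. Cytosolic ribosomal protein genes, a list added after results were seen, were lowered in B.fo with TNFa in 50 of 78 (median -0.44), against 1.70% of all genes, where 9 respiratory chain genes fell, and raised in MFpc in 36 of 77, in NK cells in 13 of 77 and in pDC in 3 of 77, against 26.6%, 7.65% and 7.23%.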
